A study of Mus musculus with 12 samples.

Results

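The 9 genes Trem2, Tyrobp, Gpnmb, Spp1, Lpl, Apoe, Cd9, Fabp5 and Lgals3, all of the lipid-associated macrophage programme, were followed in cultured macrophages from young and old mice. They were chosen by symbol, and each symbol matched 1 row of a count table of 55401 genes, so that 9 of 9 members were measured and all 9 passed the low-count filter. Bone marrow cells from mice of the C57BL6 background were grown in M-CSF, the growth factor that drives macrophage differentiation, and used as bone marrow derived macrophages on day 7, and their RNA was sequenced. The young group held 6 libraries from animals aged 8 weeks and the old group 6 from animals aged 12 months. Both groups had the same culture, and no genotype, sex or treatment of the animals is given in the sources used here. Each library is labelled as a biological replicate but not tied to an animal, and every p-value below therefore reflects variation among these libraries, which may be technical.

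TREM2 is a surface receptor of macrophages that binds lipids, lipoproteins and remnants of dead cells. It has no signalling motif of its own and signals through the adaptor encoded by Tyrobp, also called DAP12, which recruits the kinase SYK. Macrophages that take up much lipid, in fat tissue, fatty liver and atherosclerotic plaques, express the other members with Trem2: genes that load, carry and break down lipid (Apoe, Lpl, Fabp5) and genes for surface and secreted proteins (Gpnmb, Spp1, Cd9, Lgals3).

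The stretch around the start of transcription is shown for Trem2, which gives the programme its best known receptor, and for Apoe and Spp1, the pair of members whose levels moved most clearly in opposite directions between libraries. The sequences are RefSeq promoters of build GRCm38.p6, from 250 bases before to 50 bases after the start nearest the annotated 5′ end of the gene, at chr17:48346151-48346450 (plus strand), chr7:19699139-19699438 (minus strand) and chr5:104434861-104435160 (plus strand). Capitals mark GAGGAA, the core letters of sites of the PU.1 family, and TGANTCA, on either strand. TGANTCA takes any base at N and so is wider than the AP-1 site, which is TGACTCA or TGAGTCA.
Trem2: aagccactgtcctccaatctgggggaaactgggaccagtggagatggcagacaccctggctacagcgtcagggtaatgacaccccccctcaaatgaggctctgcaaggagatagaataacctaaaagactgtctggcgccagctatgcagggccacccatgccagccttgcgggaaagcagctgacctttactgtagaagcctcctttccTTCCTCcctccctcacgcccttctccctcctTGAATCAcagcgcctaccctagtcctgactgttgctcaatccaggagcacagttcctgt
Apoe: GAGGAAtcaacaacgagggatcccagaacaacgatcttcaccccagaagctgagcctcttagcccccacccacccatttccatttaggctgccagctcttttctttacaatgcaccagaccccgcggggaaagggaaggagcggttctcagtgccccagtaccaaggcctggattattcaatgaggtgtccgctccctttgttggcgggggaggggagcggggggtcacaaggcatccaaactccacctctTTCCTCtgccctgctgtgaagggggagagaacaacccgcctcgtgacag
Spp1: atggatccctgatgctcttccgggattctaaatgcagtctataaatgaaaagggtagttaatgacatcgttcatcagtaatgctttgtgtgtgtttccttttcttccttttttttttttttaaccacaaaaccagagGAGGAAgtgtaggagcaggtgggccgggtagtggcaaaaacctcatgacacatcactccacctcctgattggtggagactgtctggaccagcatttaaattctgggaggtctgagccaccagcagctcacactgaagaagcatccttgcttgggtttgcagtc
GAGGAA was found in all 3 of these stretches. TGANTCA was found in that of Trem2, as TGAATCA, which is not the AP-1 site. Of 32851 promoters of the same length, 28.3% held GAGGAA and 7.81% held TGANTCA. A RefSeq promoter was matched for 6 of the 9 members, the others being Gpnmb (a TGANTCA match, as TGACTCA), Cd9 and Lgals3 (no match to either). No pair of marked matches overlapped, and a match of letters is a description only.

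Together the 9 genes held 3.53 ± 0.371% of the assigned counts of young libraries and 3.49 ± 0.336% of those of old libraries (SD, n = 6 per group). The young libraries ran from 3.05% in replicate 2 to 4.00% in replicate 5, and the old from 2.96% in replicate 2 to 3.97% in replicate 6, so the groups overlapped over nearly their whole range. In bulk RNA, fewer cells of a type and less RNA per cell cannot be told apart. Gpnmb and Apoe made up between 54.9% (old replicate 2) and 67.1% (old replicate 4) of the members' counts. Ranked by CPM (the count as a share of the library total, scaled by TMM factors) among 12620 tested genes, Gpnmb was at place 5, Apoe at 7 and Lgals3 at 12. Totals of assigned counts ran from 22150081 to 25169045 in the young group and from 19345587 to 22356812 in the old. The lowest count of any member in any library was 6414, for Cd9, where counting error alone gives a coefficient of variation (CV, the SD as a percent of the mean) of 1.25%, or 1.77% if each fragment was counted by both mates.

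**Figure D1:**
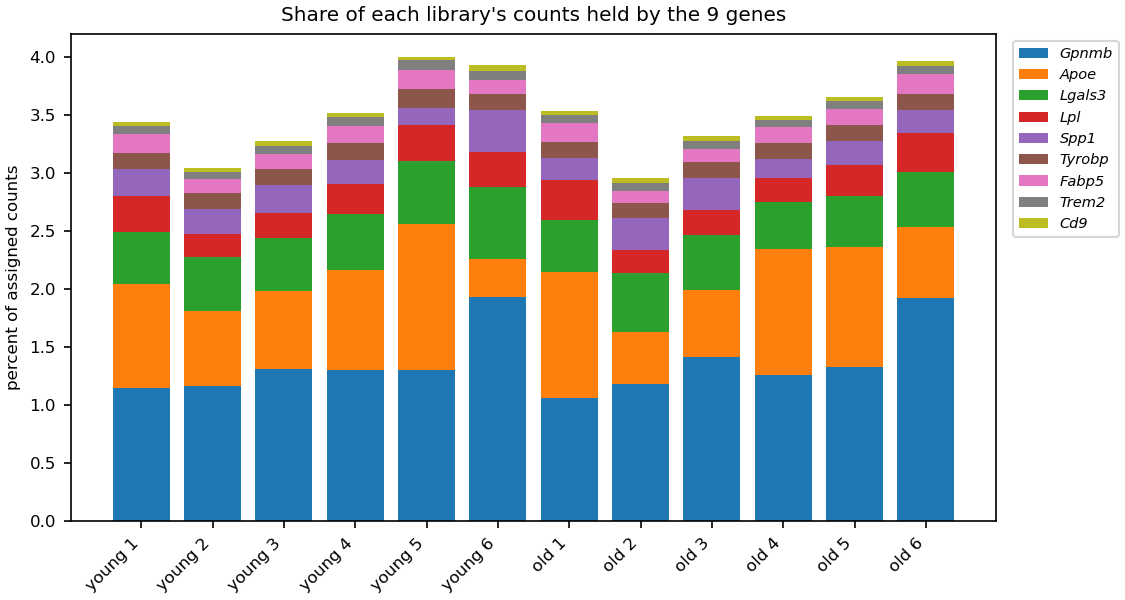
Percent of assigned counts (vertical axis) held by each of the 9 genes, stacked, in each of the 6 young and 6 old libraries (horizontal axis). The stacks reach 2.96% to 4.00%, and the Apoe part runs from 0.327% in young replicate 6 to 1.26% in young replicate 5.

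The receptor and its adaptor were among the steadiest members. Trem2 (ENSMUSG00000023992, chromosome 17, 48346401 to 48354147, plus strand, GRCm38) was at 615, 718 and 877 CPM in young libraries (lowest, median, highest) and at 638, 665 and 734 CPM in old ones. The old libraries all lay within the young range, and young replicate 5 held the highest level of the 12. Means were 726 ± 88.5 (young) and 672 ± 32.8 CPM (old; SD, n = 6 per group). Tyrobp (ENSMUSG00000030579, chromosome 7, 30413760 to 30417585, plus strand) was at 1301, 1419.5 and 1766 CPM in young and at 1259, 1369.7 and 1431 CPM in old libraries. Here too young replicate 5 was highest, no old library reached the young mean, and the groups overlapped. Without young replicate 5 the young mean was 1404 CPM, below old replicate 1 at 1431 CPM. The means of Tyrobp were 1464 ± 163 and 1359 ± 58.0 CPM (SD, n = 6 per group).

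The CV of Trem2 was 12.2% in young and 4.88% in old libraries, and that of Tyrobp 11.2% and 4.27%. Single libraries set much of these values. Without young replicate 5 the young CV was 7.80% for Trem2 and 5.55% for Tyrobp. That library had the lowest TMM factor, 0.918 beside 0.978 to 1.045 in the others, and a lower factor gives a higher CPM. As a percent of assigned counts, without these factors, it was still the highest for Trem2 (0.0805%) and Tyrobp (0.162%). Without old replicate 1 the old CV of Trem2 was 2.20%, and without old replicate 2 that of Tyrobp was 2.51%. Whether the spread itself differs with age was not tested. The biological coefficient of variation (the spread between libraries beyond counting error, from edgeR) was 11.4% for Trem2 and 10.9% for Tyrobp, against a median of 16.9% over all tested genes.

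Compared per length, on the scale of CPM per kilobase of exon (RPKM), Tyrobp stood at a mean of 2116 over the 12 libraries and Trem2 at 141. The length used matters for this distance. The exons counted for Trem2 span 4946 bases in all, while its principal transcript in GENCODE has 1088 bases. With principal transcript lengths the means were 643 for Trem2 and 2503 for Tyrobp, so the adaptor was the higher with either length.

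Of the genes that handle lipid, and of all 9 members, Apoe varied most between libraries. Apoe, which encodes the lipoprotein ligand apolipoprotein E (ENSMUSG00000002985, chromosome 7, 19696109 to 19699188, minus strand), was at 3137, 7739.6 and 13767 CPM in young libraries and at 4278, 8277 and 11018 CPM in old ones (lowest, median, highest). Young replicates 6 and 5 held the lowest and the highest level of all 12 libraries, 4.39-fold apart, and the old group lay between them. Means were 7946 ± 3551 (young) and 8070 ± 3087 CPM (old; SD, n = 6 per group). The biological coefficient of variation of Apoe was 39.8%, above that of 91.8% of all tested genes. Each group held libraries at low and at high levels of Apoe, with old replicates 2, 3 and 6 at 4278, 5570 and 6080 CPM and old replicates 1, 4 and 5 at 11000.4, 11018 and 10475 CPM.

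Lpl encodes lipoprotein lipase, which splits the triglycerides of lipoproteins (ENSMUSG00000015568, chromosome 8, 68880491 to 68907448, plus strand). It was at 1976, 2797 and 3315 CPM in young and at 1900.3, 2394 and 3477 CPM in old libraries. In each group replicate 2 was the lowest, and the groups overlapped almost fully. Means were 2704 ± 529 and 2599 ± 704 CPM (SD, n = 6 per group).

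Fabp5 encodes a fatty acid binding protein that carries fatty acids within the cell (ENSMUSG00000027533, chromosome 3, 10012548 to 10016607, plus strand). It was at 1188, 1395 and 1791 CPM in young and at 970.3, 1427 and 1726 CPM in old libraries, with means of 1428 ± 248 and 1369 ± 292 CPM (SD, n = 6 per group). The groups overlapped, and young replicate 5 was again the highest library in CPM. As a percent of assigned counts, without TMM factors, old replicate 6 was higher (0.172% against 0.164% in young replicate 5). Of the longest Fabp5 transcript 10.3% matched transcripts of 3 other genes at 95% identity or more over at least 100 bases, so reads of that stretch may have been left out as multiply aligned, and the level of Fabp5 is uncertain to that extent.

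**Figure D2:**
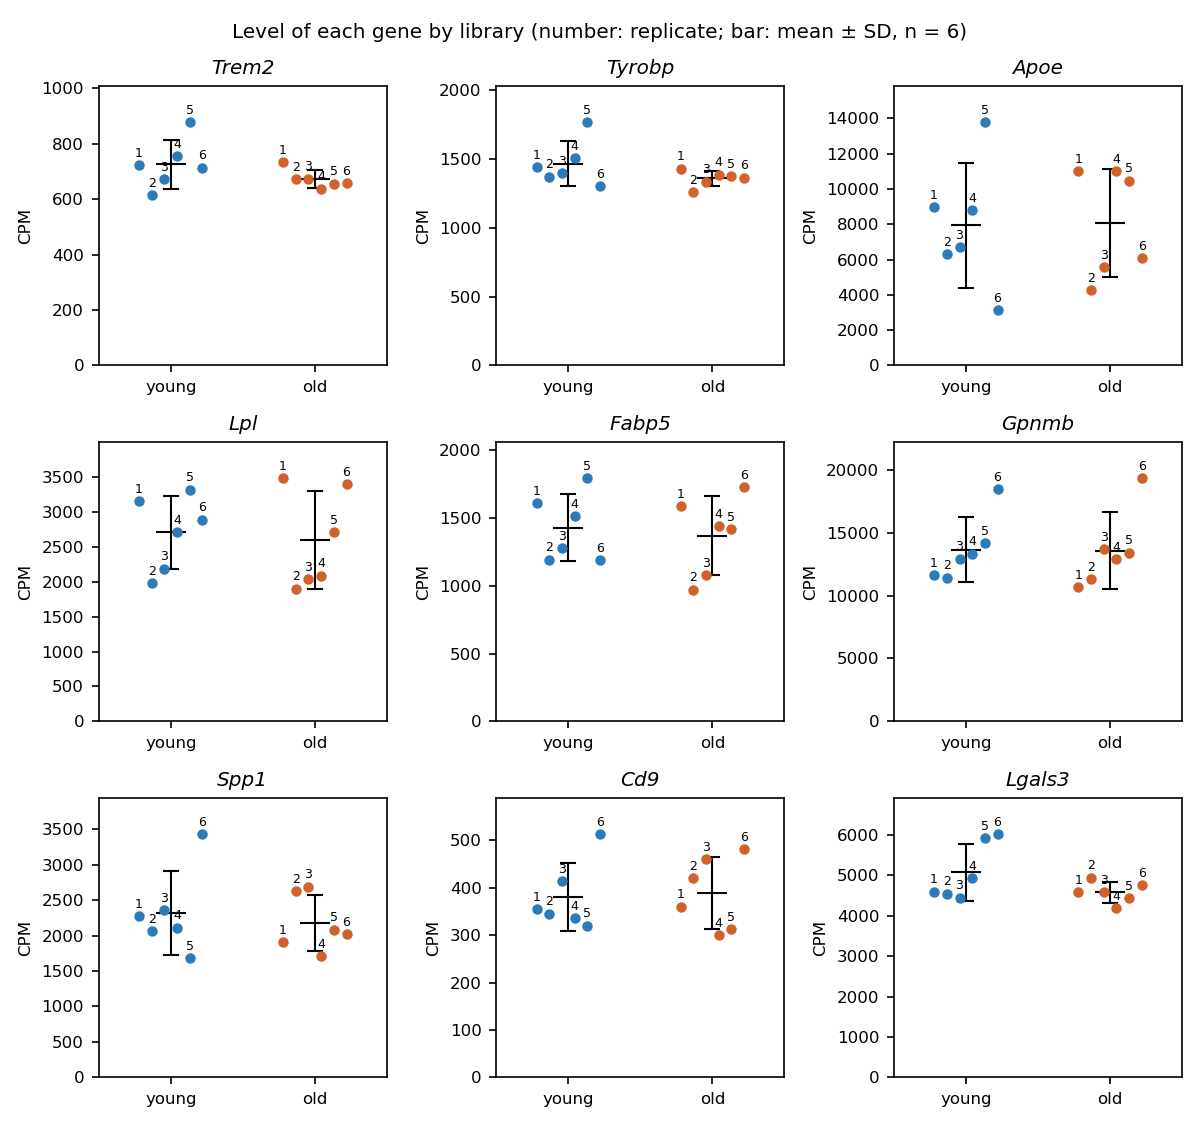
CPM (vertical axis, from 0) of each of the 9 genes in young and old libraries (horizontal axis). Each point is 1 library, labelled with its replicate number, and the bars give the mean ± SD (n = 6). The groups overlap for all 9 genes, and the points of Apoe, from 3137 to 13767 CPM, are the most widely spread.

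Among the genes for surface and secreted proteins, Gpnmb had the highest CPM, a scale that is not corrected for length. It encodes a glycoprotein of the lysosome and cell surface (ENSMUSG00000029816, chromosome 6, 49036546 to 49070929, plus strand), and was at 11408, 13128 and 18474 CPM in young and at 10677, 13153 and 19302 CPM in old libraries (lowest, median, highest). In each group replicate 6 stood above the other 5 libraries. Means were 13654 ± 2579.5 and 13546 ± 3059 CPM (SD, n = 6 per group). Without replicate 6 the CV of Gpnmb was 9.15% in place of 18.9% in young libraries and 10.7% in place of 22.6% in old libraries. Young replicate 6 thus joined the second highest Gpnmb with the lowest Apoe of the 12. The ratio of Gpnmb to Apoe, both in RPKM, was 1.93 in young replicate 6, between 0.338 and 0.635 in the other young libraries, and between 0.319 and 1.04 in the old ones.

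Spp1 encodes osteopontin, a secreted glycoprotein that binds integrins and CD44 (ENSMUSG00000029304, chromosome 5, 104435118 to 104441050, plus strand). It was at 1681, 2195 and 3425 CPM in young and at 1709, 2050.2 and 2689 CPM in old libraries. The highest library was young replicate 6 and the lowest young replicate 5, in the reverse order to Apoe. Means were 2318 ± 590.2 and 2172 ± 396 CPM (SD, n = 6 per group), and without young replicate 6 the young CV was 12.5% in place of 25.5%.

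Cd9 encodes a tetraspanin that organises other proteins in the plasma membrane (ENSMUSG00000030342, chromosome 6, 125460266 to 125494791, minus strand). It was at 319, 349.7 and 512 CPM in young and at 299.9, 390.1 and 481 CPM in old libraries. The highest libraries were replicate 6 of each group. The groups overlapped, and means were 380.03 ± 72.2 and 389 ± 76.2 CPM (SD, n = 6 per group). Without young replicate 6 the young CV was 10.1% in place of 19.0%. Parts of the exons of Spp1 (18.8%) and Cd9 (10.7%) overlap another annotated gene, Gm42793 and Gm26728, and reads there may have gone uncounted.

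Lgals3 encodes galectin-3, a lectin of phagocytes that binds beta-galactosides (ENSMUSG00000050335, chromosome 14, 47367751 to 47386160, plus strand). It was at 4446, 4765 and 6014 CPM in young and at 4189, 4580.0 and 4947 CPM in old libraries. Young replicates 5 and 6, at 5920 and 6014 CPM, lay above all other libraries of either group, while the other 4 young libraries lay among the old ones. Means were 5076 ± 709.8 and 4579.6 ± 260.5 CPM (SD, n = 6 per group), with a CV of 13.98% and 5.69%.

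In RPKM over counted exons, the order of the mean levels over the 12 libraries was Apoe (3746), Lgals3 (2598), Tyrobp (2116), Gpnmb (2088), Spp1 (1362), Fabp5 (392), Lpl (253), Cd9 (188) and Trem2 (141). Neighbours in this order did not always differ beyond their spread. Apoe and Lgals3 were at 3717 ± 1661 and 2732 ± 382 RPKM in young and 3775 ± 1444 and 2465 ± 140 RPKM in old libraries (SD, n = 6 per group). In young replicate 6 (1467 against 3237 RPKM) and old replicate 2 (2001 against 2663 RPKM) Apoe was below Lgals3. Tyrobp and Gpnmb were at 2195 ± 245 and 2096 ± 396 RPKM in young and 2037 ± 86.9 and 2080 ± 470 RPKM in old libraries (SD, n = 6 per group). Lpl and Cd9 were at 258 ± 50.5 and 186 ± 35.3 RPKM in young and 248 ± 67.2 and 190 ± 37.3 RPKM in old libraries, with overlapping ranges in each group. With principal transcript lengths Gpnmb (3675) came before Lgals3 (3402), and Trem2 (643) and Lpl (644) stood level and above Cd9 (313).

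The comparison of age asked whether any of the 9 genes differs between young and old macrophages. None of them had an adjusted p at or below 0.05 by quasi-likelihood testing in edgeR, a test that 0.0158% of the 12620 genes tested passed. No member had an unadjusted p at or below 0.05 in edgeR (5.47% of tested genes did), nor in the exact permutation test described next, and no member had groups that did not overlap (0.206% of tested genes did). The log2 fold change, old minus young, was negative for 7 members and positive for Apoe and Cd9, and with library size alone as scaling that of Gpnmb turned positive as well. The median over the members was -0.06, beside -0.01 over all tested genes.

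The estimate farthest from 0 was that of Lgals3, at -0.15 with a standard error of 0.09, a 95% confidence interval of the fold from 0.787 to 1.03 and an edgeR adjusted p of 0.77. Trem2 had a log2 fold change of -0.11 with a standard error of 0.08, an interval of the fold from 0.822 to 1.04 and an edgeR adjusted p of 0.77. That of Tyrobp was -0.11 with a standard error of 0.08, an interval from 0.828 to 1.04 and an edgeR adjusted p of 0.77. For these 3 genes the intervals leave room for a fold no lower than 0.787 and no higher than 1.04. Apoe had the widest interval, from 0.613 to 1.68, around a log2 fold change of 0.02 (edgeR adjusted p 0.99). The intervals of the remaining members lay between 0.738 (Lpl) and 1.26 (Cd9), around log2 fold changes of -0.09 for Spp1, -0.06 for Lpl, -0.06 for Fabp5, -0.01 for Gpnmb and 0.03 for Cd9. A two-sided exact permutation test of each member over the 924 assignments of libraries gave p-values from 0.15 (Tyrobp) to 0.88 (Apoe), where the smallest possible is 0.0022.

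**Figure D3:**
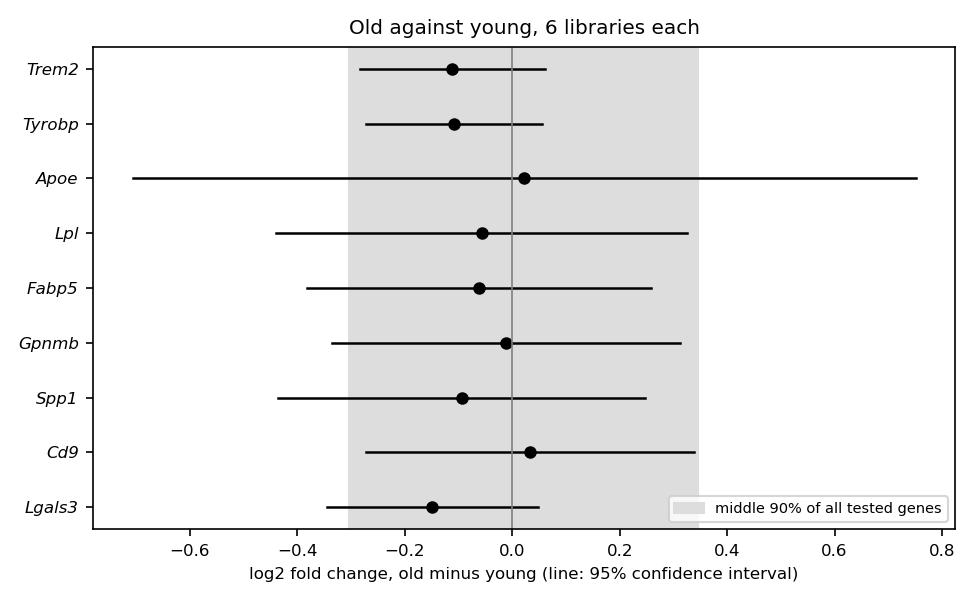
Log2 fold change, old minus young, of each of the 9 genes (points) with its 95% confidence interval (lines), from 6 young and 6 old libraries. The grey band holds the middle 90% of all tested genes, the vertical line marks 0, and all 9 intervals cross it, with Apoe's the widest.

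The members did not vary as 1 block between libraries. Of the 36 pairs of members, 9 had a Pearson correlation of log2 CPM over the 12 libraries that passed an adjusted p of 0.05 in a two-sided permutation test, 6 of them positive and 3 negative. In 5 of the 9 Spearman's coefficient passed as well. P-values were adjusted over the 36 pairs. Among all pairs of the 12620 tested genes, 12.3% had an r at least as far from 0 as the smallest that passed among the members (0.689 in size), so such relations were common in these libraries and nothing particular to the members is read from their number. All values are ratios to 1 library total, so members that hold over 1% of counts can move others slightly.

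Apoe ran against Spp1 and against Cd9. For Apoe and Spp1, Pearson's r was -0.888 (permutation p 1.3e-04, adjusted 0.0047) and Spearman's coefficient -0.811 (permutation p 0.0022, adjusted 0.020). For Apoe and Cd9, r was -0.850 (permutation p 5.1e-04, adjusted 0.0092) and Spearman's coefficient -0.832 (permutation p 0.0013, adjusted 0.020). Libraries with much Apoe thus had little Spp1 and Cd9, in both age groups: within young libraries r was -0.931 and -0.904, and within old libraries -0.831 and -0.824, for Spp1 and Cd9 in turn. Without young replicates 5 and 6, the libraries farthest from the median of Apoe, r was -0.746 with Spp1 and -0.770 with Cd9.

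Tyrobp ran with Apoe and with Fabp5. For Tyrobp and Apoe, r was 0.743 (permutation p 0.0046, adjusted 0.028) and Spearman's coefficient 0.818 (permutation p 0.0019, adjusted 0.020), and r was 0.692 without old replicate 2 and young replicate 5. For Tyrobp and Fabp5, r was 0.726 (permutation p 0.0039, adjusted 0.028) and Spearman's coefficient 0.755 (permutation p 0.0063, adjusted 0.045), and r was 0.591 without the same libraries. Lpl and Fabp5, the lipase and the fatty acid carrier, also moved together. For Lpl and Fabp5, r was 0.819 (permutation p 0.0019, adjusted 0.022) and Spearman's coefficient 0.811 (permutation p 0.0022, adjusted 0.020), and r was 0.738 without young replicate 2 and old replicate 2.

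A further 4 pairs passed by Pearson's r alone. Trem2 and Tyrobp, receptor and adaptor, had an r of 0.803 (permutation p 0.0066, adjusted 0.034) and a Spearman's coefficient of 0.566 (permutation p 0.059, adjusted 0.17). Without young replicates 4 and 5, the libraries farthest from the median of Trem2, their r was 0.182 over 10 libraries. Within young libraries r was 0.838 and within old libraries 0.294. The same step among the 9 libraries of lower cell cycle level described below left an r of 0.879 over 7 libraries. The 10 and the 7 libraries differ only by young replicate 6 and old replicates 2 and 3. That split was chosen after seeing the data, and the part of each of these libraries in the low value was not tested. Apoe and Fabp5 had an r of 0.725 (permutation p 0.0079, adjusted 0.036) and a Spearman's coefficient of 0.692 (permutation p 0.016, adjusted 0.080), and r was 0.694 without young replicates 5 and 6. Fabp5 and Spp1 had an r of -0.689 (permutation p 0.012, adjusted 0.049) and a Spearman's coefficient of -0.734 (permutation p 0.0089, adjusted 0.053), and r was -0.616 without old replicates 2 and 3. Spp1 and Cd9 had an r of 0.771 (permutation p 0.0026, adjusted 0.024) and a Spearman's coefficient of 0.643 (permutation p 0.027, adjusted 0.12), and r was 0.557 without old replicate 3 and young replicate 6. Gpnmb, the most abundant member in CPM, passed with no other member, its highest r being 0.564 with Cd9 (permutation p 0.055, adjusted 0.14).

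**Figure D4:**
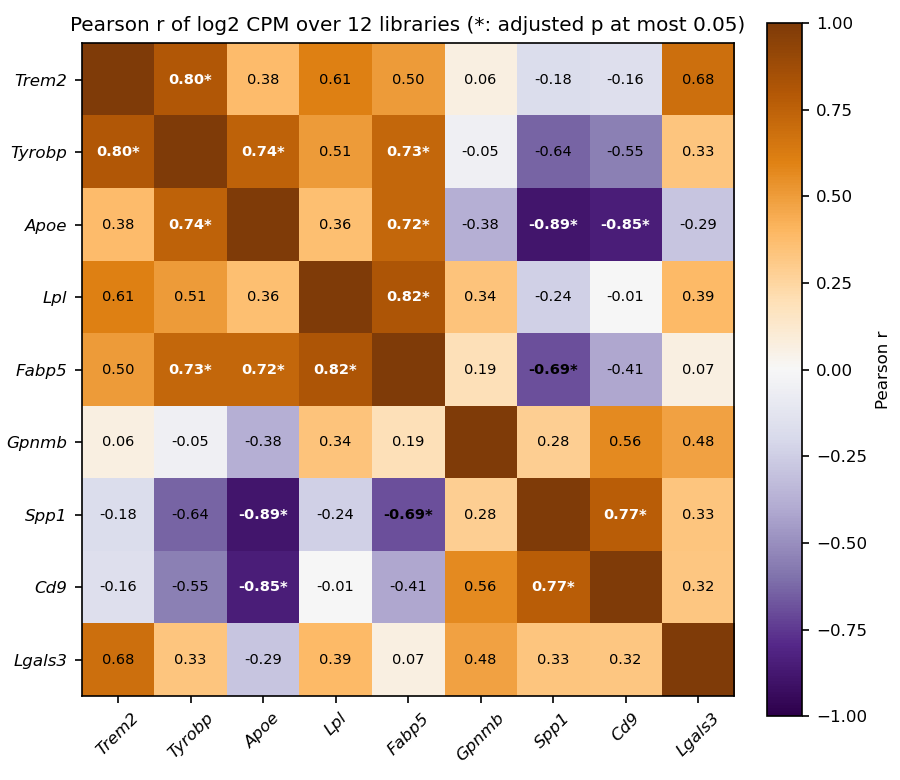
Pearson's r of log2 CPM over the 12 libraries for each pair of the 9 genes, from purple (negative) to orange (positive). Stars mark the 9 pairs with an adjusted permutation p at most 0.05. Apoe is at -0.888 with Spp1 and -0.850 with Cd9, and Lpl and Fabp5 are at 0.819.

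Members also moved with the cell cycle level of a library, the mean log2 CPM of 26 genes of replication and mitosis. Young replicate 6 stood highest at 6.91, then came old replicates 2 and 3 at 6.25 and 5.70, and the remaining 9 libraries ran from 4.12 to 5.33. Over 9 relations, adjusted together, 4 members passed by Pearson's r. Of all tested genes 34.4% had an r at least as far from 0 as the smallest of these 4 (0.651), so a count of 4 in 9 is near the background and is no result about the members as a group. Apoe was lower where the level was higher, with an r of -0.867 (permutation p 1.8e-04, adjusted 8.1e-04) and a Spearman's coefficient of -0.762 (permutation p 0.0056, adjusted 0.019). Fabp5 was lower too, with an r of -0.784 (permutation p 0.0020, adjusted 0.0060) and a Spearman's coefficient of -0.755 (permutation p 0.0063, adjusted 0.019). Spp1 was higher, with an r of 0.886 (permutation p 1.6e-04, adjusted 8.1e-04) and a Spearman's coefficient of 0.825 (permutation p 0.0016, adjusted 0.014). Cd9 was higher by Pearson's r of 0.651 (permutation p 0.019, adjusted 0.044) and did not pass by Spearman's coefficient (0.594, permutation p 0.045, adjusted 0.10). For Trem2 the relation did not pass, with an r of -0.0839 (permutation p 0.79, adjusted 0.79) and a Spearman's coefficient of 0.133 (permutation p 0.68, adjusted 0.72).

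Without young replicate 6 and old replicate 2, the libraries farthest from the median level, r was -0.632 for Apoe, -0.796 for Fabp5, 0.725 for Spp1 and 0.403 for Cd9. Over the 9 libraries of lower level no member passed, the largest r being -0.633 for Fabp5 (permutation p 0.066, adjusted 0.45). In those 9 libraries 1.35% of all pairs of tested genes had an r of 0.890 or more in size, as did 3 of the 36 pairs of members. By Pearson's r 2 of these passed, Trem2 with Tyrobp (r 0.936, permutation p 2.8e-04, adjusted 0.010) and Lpl with Fabp5 (r 0.890, permutation p 0.0012, adjusted 0.022). Their Spearman's coefficients were 0.867 (permutation p 0.0039) and 0.833 (permutation p 0.0083), both p-values unadjusted, so a pass by Spearman's coefficient is not claimed. The remaining pair was Tyrobp with Lgals3 (r 0.919, permutation p 0.0088, adjusted 0.079), with an r of 0.0785 without young replicates 4 and 5. Over the same 9 libraries Apoe was at -0.653 with Spp1 (permutation p 0.059, adjusted 0.23) and at -0.734 with Cd9 (permutation p 0.020, adjusted 0.14). Young replicate 6 and old replicates 2 and 3 lay apart from all other libraries in 4 of the 9 members. They held less Apoe (3137 to 5570 against 6080 to 13767 CPM), Tyrobp (1259 to 1336 against 1364 to 1766 CPM) and Fabp5 (970.3 to 1188 against 1193 to 1791 CPM), and more Spp1 (2621 to 3425 against 1681 to 2353 CPM). Of all tested genes 12.6% lay apart in this way, in either direction. The part of proliferation in the relations between members was not tested.

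**Figure D5:**
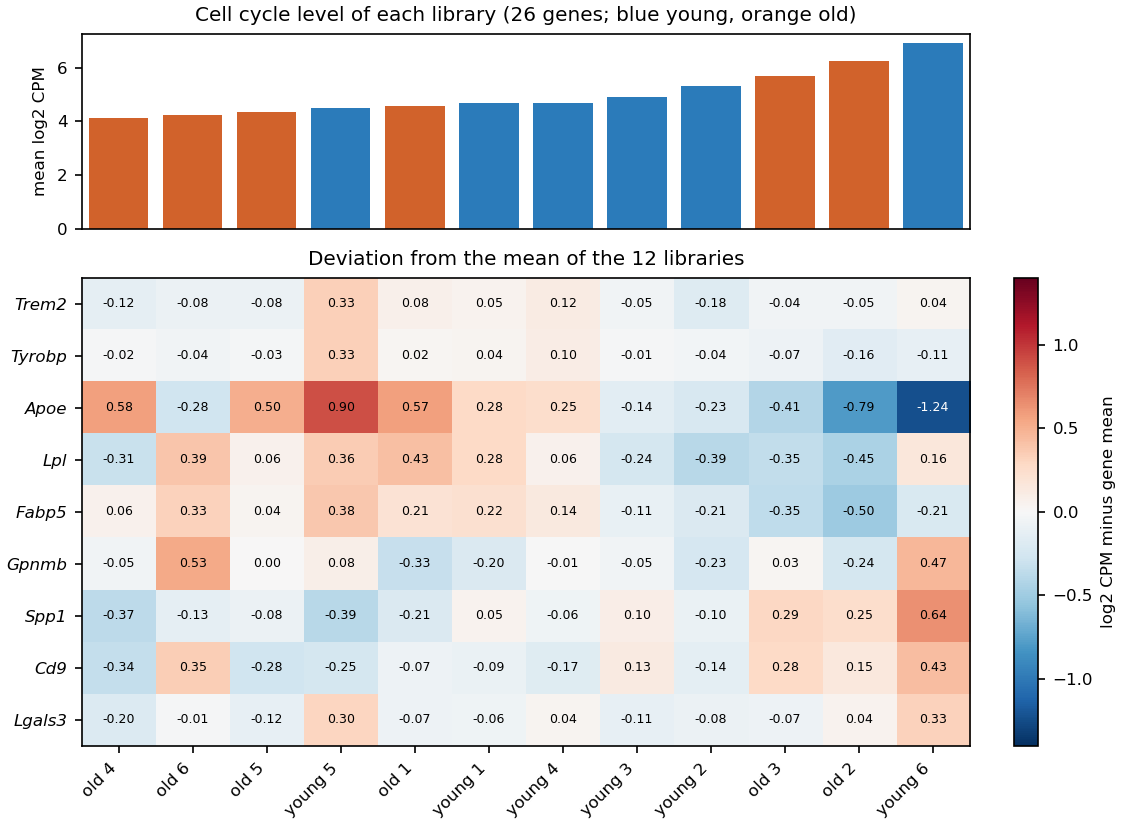
Cell cycle level of each library (upper panel, mean log2 CPM of 26 genes, blue young and orange old) and deviation of each of the 9 genes from its mean over the 12 libraries (lower panel, log2 CPM), with libraries ordered by cell cycle level. Towards the right, where the level reaches 6.91, Apoe turns blue (lower) and Spp1 red (higher).

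The genes whose pattern over the 12 libraries was most like that of Trem2 were sought among 9415 others with a mean of at least 5 CPM, by Pearson's r of log2 CPM. They were Ddx28 (0.950), Cd68 (0.920), Plbd2 (0.888), Syngr2 (0.874) and BC031181 (0.868), chosen for this likeness and so given with no test. Cd68 encodes a lysosomal glycoprotein used as a macrophage marker and ran from 2389 to 3426 CPM, beside 615 to 877 CPM for Trem2. How far single libraries set the r of these 5 genes was not tested. Among the members Tyrobp stood at place 35 of 9423 genes in likeness to Trem2, Lgals3 at 201, Lpl at 465, Fabp5 at 1016 and Apoe at 1838. Gpnmb, Cd9 and Spp1 stood at 4378, 6175 and 6313. These places use all 12 libraries and depend on single ones. Without young replicates 4 and 5, r with Trem2 was 0.182 for Tyrobp, 0.426 for Lgals3 and 0.631 for Lpl, beside 0.803, 0.684 and 0.609 over all 12.

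Other genes of the pathway, in 5 lists, were read from the same fit. Of 101 genes 93 were tested, none passed in either direction, and 5 (5.38%) had an unadjusted p at or below 0.05, beside 5.47% of all tested genes. The signalling list around TREM2, from SYK to the proteases that shed the receptor, had 15 of 17 genes tested, 7 positive and 8 negative, with a median log2 fold change of -0.0036. Vav1, a guanine nucleotide exchange factor of blood cells, had the lowest p in it, at 271 ± 15.01 (young) and 248 ± 6.70 CPM (old; SD, n = 6 per group, edgeR adjusted p 0.77). Grb2, an adaptor of receptor signalling, was at 458 ± 48.7 and 468 ± 29.2 CPM, and Ptpn6, the phosphatase SHP-1, at 451 ± 50.5 and 405 ± 40.6 CPM. Trem1 and Trem3, relatives of Trem2, did not pass the low-count filter.

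The further genes of the lipid-associated programme (31, all tested) had 19 positive and 12 negative log2 fold changes and a median of 0.06. The cathepsin genes Ctsb and Ctsd led it per length. Ctsb was at 28121 ± 3199 and 28408 ± 2389 CPM and Ctsd at 10603 ± 901 and 9980 ± 603 CPM (SD, n = 6 per group, young before old), so neither differed beyond the spread. Cst7, which encodes cystatin F, an inhibitor of lysosomal proteases, had the lowest p of this list, at 11.5 ± 3.39 and 8.84 ± 1.97 CPM (edgeR adjusted p 0.77).

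Among 17 regulators 9 were positive and 8 negative, with a median of 0.02. Spi1, which encodes PU.1, was at 537 ± 67.1 and 483 ± 33.4 CPM and Cebpa, which encodes a transcription factor of myeloid cells, at 162 ± 12.6 and 173 ± 12.7 CPM (SD, n = 6 per group, young before old).

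Receptors and partners of the members' proteins (24 of 26 tested) had 15 positive and 9 negative log2 fold changes and a median of 0.02. Lgals3bp, which encodes a glycoprotein bound by galectin-3, was at 1250.0 ± 445 and 1096 ± 170 CPM, and Itgb5, an integrin chain that takes part in binding osteopontin, at 435 ± 33.3 and 442 ± 13.5 CPM (SD, n = 6 per group, young before old). Of Apoc2, the activator of lipoprotein lipase, and Gpihbp1, its anchor on capillaries, neither passed the low-count filter. Among 10 genes of resident macrophages 6 were tested, 3 positive and 3 negative, with a median of -0.01. The scavenger receptor gene Cd163 was at 17.3 ± 5.19 and 21.0 ± 2.93 CPM, the ligand gene Gas6 at 1482 ± 125 and 1443 ± 238 CPM and Cd5l at 297 ± 118 and 269 ± 84.3 CPM.

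The libraries carried the markers of the labelled cell type, all 9 of the macrophage list at 1 CPM or more, with Lyz2 at 30704 ± 5454 and 30259.9 ± 3209 CPM, Csf1r at 4377 ± 974 and 4328 ± 655, Cd68 at 2781 ± 370 and 2631 ± 148, Adgre1 at 1189.8 ± 234 and 1266 ± 201 and Itgam at 170 ± 11.5 and 148 ± 9.85 CPM (SD, n = 6 per group, young before old). Summed markers of other cell types that can express members were far below the macrophage sum of 27270 to 45152 CPM in young and 32683 to 43845 CPM in old libraries. Lyz2 held the largest part of that macrophage sum. A mean of 1 CPM was reached by 6 of 10 neutrophil, 5 of 8 osteoclast and 4 of 9 monocyte and progenitor markers. It was reached by 1 of 6 megakaryocyte and platelet, 1 of 7 dendritic, 1 of 9 lymphocyte and 1 of 7 mast cell, basophil and eosinophil markers. Of 11 markers of stromal cells and osteoblasts, sources of Spp1, none reached a mean of 1 CPM, the sum ran from 0.404 to 1.71 CPM in young and 0.558 to 2.52 CPM in old libraries, and Ibsp, Col3a1 and Lum were at 0 in every library. Of 5 adipocyte markers, for Lpl, 4 were at 0 in every library and the sum stayed at or below 0.0903 CPM. Osteoclast markers summed to 83.5 to 94.5 CPM in young and 88.7 to 108 CPM in old libraries, led by Nfatc1 (69.9 ± 4.52 and 76.1 ± 3.91 CPM), with Calcr at 0 throughout. Megakaryocyte and platelet markers, for Cd9, summed to 26.9 to 43.9 and 22.3 to 52.5 CPM, led by Pf4 (33.0 ± 5.82 and 33.0 ± 10.3 CPM). The sums for the remaining lists, young then old, were 72.1 to 221 and 125 to 233 CPM for neutrophils (lead gene Csf3r), 38.99 to 73.99 and 30.6 to 77.4 CPM for monocytes and progenitors (Ccr2), 2.75 to 5.19 and 3.27 to 9.69 CPM for dendritic cells (Clec9a), 2.34 to 3.76 and 1.26 to 22.9 CPM for lymphocytes (Cd79b), and 7.51 to 13.7 and 8.19 to 22.8 CPM for mast cells, basophils and eosinophils (Kit). The part of these cells in the members' levels was not tested.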

How the data were processed

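Deposited values are raw counts of alignment records per gene for 12 libraries, which the authors made with featureCounts 1.6.0. Per the file headers the annotation was Ensembl 100 (GRCm38) and no option for strand, fragments or multiple alignments was set. The submitters' processing notes list FastQC, STAR and the build mm10. The TruSeq RNA v2 kit and TRIzol are named in the labels' protocols. Of 55401 gene IDs 55141 were given a symbol.

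Counts were tested with edgeR 4.0.16 (R 4.3.3): quasi-likelihood F test, robust, TMM factors, edgeR's low-count filter (12620 genes, 99.9% of counts), group as the single term, all 12 libraries, Benjamini-Hochberg adjustment over all tested genes, two-sided, threshold 0.05. The standard error was the log2 fold change over the root of F. The script was tested on simulated data. Correlations used log2 CPM (prior count 2) and 100000 resamples (SciPy 1.17.1, Python 3.11.15). RPKM used the exon lengths of the deposited table. No pair of libraries agreed within sampling noise (chi-square per gene 5.12 to 179).

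Members and lists were chosen with earlier results of these data known. The genes named were the 9 members, from each list the gene of lowest p and the 2 of highest RPKM (and any past the threshold), the 5 genes most like Trem2, the lead gene of each marker list, Adgre1, Csf1r, Cd68, Lyz2, Itgam and Mki67. Mki67 stood at 139 ± 134 (young) and 105 ± 103 CPM (old; SD, n = 6 per group). Of these genes, 2 are not reported here. Genes named as not tested or at 0 were chosen after their values were seen. Alternatives were other scalings, filters and tools (DESeq2 1.42.0, limma 3.58.1 voom), a replicate block and each library left out. Leaving out young replicate 6 and old replicates 2 and 3 together, a cell cycle covariate and each library left out for the spread were added after seeing the data.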

Additional observations from a re-analysis of the deposited data

Results flagged for a closer look

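Gpnmb stood at 19302 CPM in old replicate 6, while the other 5 old libraries lay between 10677 and 13675 CPM, so that its gap to the nearest library was 0.652 of the range of the group. This passes Dixon's test for 1 library far from the others. It was the 1 passing group of 20 checked (9 genes and their summed share in each age group), and chance alone gives about 1 in 20. Its young counterpart, replicate 6 at 18474 CPM, did not pass.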

How the results depend on the processing

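The number of members past the threshold was 0 in the main test and in each of the 22 alternatives run, and so was the number among the other genes of the pathway. Over all tested genes, same-numbered young and old libraries correlated between -0.171 and 0.390. Not all were the best match, so the numbers were not taken as pairs. With the replicate block Trem2 had a log2 fold change of -0.10 and Apoe of 0.06, and 0 members and 0 other genes passed. The block lowered the standard error of Gpnmb from 0.151 to 0.062 and that of Cd9 from 0.142 to 0.070. For Lpl it fell from 0.177 to 0.092 and for Apoe from 0.335 to 0.193. It changed little for Trem2 (0.080 in both) and Lgals3 (0.092 and 0.089). Whether same-numbered libraries share a source was not tested. Leaving out young replicate 6 and old replicates 2 and 3 together gave positive log2 fold changes for Lpl (0.13), Fabp5 (0.064) and Gpnmb (0.15) and a negative one for Itgb5 (-4.9e-04). With the cell cycle covariate the sign turned for Apoe (-0.12), Gpnmb (0.010), Spp1 (0.0063), Grb2 (-0.0050) and Ctsb (-0.026), and with library size alone for Gpnmb (0.0027). When single libraries were left out, the log2 fold change crossed 0 for Apoe (-0.14 to 0.25), Gpnmb (-0.14 to 0.10), Spp1 (-0.17 to 0.051), Lpl (-0.16 to 0.021), Fabp5 (-0.14 to 0.023), Cd9 (-0.035 to 0.14), Cd5l (-0.29 to 0.0074), Ctsb (-0.035 to 0.055), Gas6 (-0.096 to 0.048), Grb2 (-0.021 to 0.060), Itgb5 (-0.0045 to 0.057) and Lgals3bp (-0.26 to 0.027). Trem2, Tyrobp and Lgals3 stayed negative, at -0.15 to -0.05, -0.14 to -0.05 and -0.18 to -0.09. With the 50 most abundant genes, 5 members among them, taken out of the denominator, the members' summed counts came to 4.77% of the rest in young and 4.72% in old libraries, by construction a higher value. Of the relations between members 2 in place of 9 passed without those 3 libraries, and 0 in place of 4 with the cell cycle level, over 9 in place of 12 libraries. Over all tested genes 2 passed in the main test, 11 with DESeq2, 3 with voom, 4 with no low-count filter, 4 with the block, 5 with the covariate, 3 without the 3 libraries, and 1 to 5 with single libraries left out. For the members, counting error gives a CV of at most 1.25%, or 1.77% if each fragment was counted by both mates. Between the libraries of a group the CV was 4.27% or more. For genes of low counts this was not examined.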
